A study of Homo sapiens with 8 samples.

Results

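The 10 genes described here encode enzymes and helpers that turn newly made collagen into cross-linked fibres: the lysyl oxidases LOX, LOXL1, LOXL2, LOXL3 and LOXL4, the procollagen peptidases ADAMTS2 and BMP1, the peptidase enhancer PCOLCE, the collagen chaperone SERPINH1 and the lysyl hydroxylase PLOD2. They were taken by symbol from a table of 58336 Ensembl genes, and each symbol matched 1 identifier. Of the 10, 9 had reads and passed the low-count filter, which 15220 genes of the table passed, and LOXL4 had no read in any of the 8 libraries. RNA was sequenced from the human SUM159 line, an established model of triple-negative breast cancer with mesenchymal features. The ITGB4-high group (2 libraries) and the ITGB4-low group (3 libraries, all from clone 1) were grown in dishes. The lung-recovered group (3 libraries) was ITGB4-low clone 1 cells that had been put into mice through the tail vein, in animals given bleomycin, an agent that injures and inflames the lung, by the trachea. These cells were taken from dissociated lungs, kept in dishes overnight and sorted the next day for the red fluorescent protein tdTomato. No lung library without bleomycin was among the samples, so the drug, the stay in the lung and the recovery from it cannot be told apart, and neither can the ITGB4-low state and the traits of 1 clone.

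Fibrillar collagen is made as procollagen in the endoplasmic reticulum, where prolines and lysines are hydroxylated and the chains fold into a triple helix with the help of collagen-specific chaperones. After secretion, peptidases cut off the propeptides at both ends so that the molecules can assemble into fibrils. Copper-dependent lysyl oxidases then oxidise lysines and hydroxylysines, and the products condense into cross-links that stiffen the matrix. In breast tumours, LOX-family enzymes and PLOD2 are known for their part in matrix stiffening and metastasis, and LOX, LOXL2 and PLOD2 are known targets of the hypoxia-inducible factors.

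The libraries held 20.4 to 27.2 M counts. ITGB4, the integrin subunit that names the groups, had 420 and 376 CPM (counts per 1 M counts, after TMM scaling for library composition) in the ITGB4-high libraries, 5.29, 7.46 and 9.13 CPM in the ITGB4-low libraries, and 401, 376 and 407 CPM in the lung-recovered libraries. The dish-grown libraries thus followed their labels, and the lung-recovered cells, injected as ITGB4-low, stood at the ITGB4-high level (edgeR adjusted p = 0.903). The mesenchymal marker VIM stood at 4261 to 5024 CPM in all libraries, and the oestrogen receptor gene ESR1 and the epithelial genes CDH1 and EPCAM were at or below 0.121 CPM. Markers of lymphocytes (6 genes), erythroid cells (5 genes) and lung epithelium (7 genes) summed to at most 1.93 CPM in any library. Myeloid markers (8 genes) summed to 2.81 to 3.51 CPM in ITGB4-high, 5.19 to 5.88 CPM in ITGB4-low and 5.71 to 6.65 CPM in lung-recovered libraries, with AIF1 and TYROBP at 0 throughout. Endothelial markers (7 genes, CLDN5 at 0) summed to 3.74 to 4.75, 9.86 to 12.1 and 8.44 to 10.1 CPM, and smooth muscle markers (5 genes) to 16.3 to 19.0, 13.8 to 17.8 and 12.4 to 13.9 CPM, in the same order. The 7 lung fibroblast markers summed to 43.4 to 50.2 CPM in ITGB4-high, 46.6 to 54.0 CPM in ITGB4-low and 150.0 to 158 CPM in lung-recovered libraries. Of these, 5 were tested. Between lung-recovered and ITGB4-low cells PDGFRA (log2 fold change 3.38), COL3A1 (1.89) and COL1A1 (1.72) rose, PDGFRB (-0.37) fell and DCN (0.17) was not called. LUM and TCF21 were at or below 0.113 and 0.189 CPM in the lung-recovered libraries, and none of the 7 was at 0 in all libraries. The part of any of these cell types in the results below was not tested.

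The promoters of 4 members are shown first, since these members moved most or moved apart in the results below. Sequences are RefSeq windows of build GRCh38.p14 from 250 bases before to 50 bases after a transcription start, written 5′ to 3′ on the strand of the gene. Windows of 8 of the 10 members were searched, and those of LOXL2 and BMP1 were left out. ADAMTS2 and PCOLCE were both nearly silent in ITGB4-high cells and both rose strongly in ITGB4-low cells. Capitals mark the CG dinucleotides in them:
ADAMTS2 (chr5:179345412-179345711, minus strand): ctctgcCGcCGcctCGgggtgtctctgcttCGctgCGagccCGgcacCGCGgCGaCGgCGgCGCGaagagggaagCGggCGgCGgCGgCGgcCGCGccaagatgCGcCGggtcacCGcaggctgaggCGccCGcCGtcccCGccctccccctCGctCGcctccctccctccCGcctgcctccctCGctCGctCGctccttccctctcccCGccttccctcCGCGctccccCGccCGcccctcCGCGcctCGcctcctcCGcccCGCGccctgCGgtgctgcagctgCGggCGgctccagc
PCOLCE (chr7:100602113-100602412, plus strand): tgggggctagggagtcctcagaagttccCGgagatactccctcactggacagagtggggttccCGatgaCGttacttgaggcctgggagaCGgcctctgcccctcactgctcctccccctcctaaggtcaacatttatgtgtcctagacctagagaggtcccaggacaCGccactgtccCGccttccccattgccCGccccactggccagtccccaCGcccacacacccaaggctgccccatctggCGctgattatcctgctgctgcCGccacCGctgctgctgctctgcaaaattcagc
The ADAMTS2 window is a dense CpG stretch with 47 CG dinucleotides and 80.3% G and C. The PCOLCE window holds 11 CG dinucleotides and 62.0% G and C, and the median over all 35116 windows of the table is 14. The 2 members with the strongest rise in ITGB4-low therefore start in windows of different base composition. No methylation was measured.

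PLOD2 and LOX both rose in ITGB4-low cells but parted in the lung-recovered cells. Capitals mark the letters ACGTG or GCGTG, read on either strand, which are the core of the hypoxia response element:
PLOD2 (chr3:146161135-146161434, minus strand): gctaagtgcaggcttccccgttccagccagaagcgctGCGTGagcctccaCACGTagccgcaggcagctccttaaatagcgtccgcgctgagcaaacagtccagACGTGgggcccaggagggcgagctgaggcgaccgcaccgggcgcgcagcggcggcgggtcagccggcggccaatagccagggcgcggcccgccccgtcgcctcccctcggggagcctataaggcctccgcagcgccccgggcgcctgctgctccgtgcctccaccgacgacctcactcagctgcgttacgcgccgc
LOX (chr5:122078210-122078509, minus strand): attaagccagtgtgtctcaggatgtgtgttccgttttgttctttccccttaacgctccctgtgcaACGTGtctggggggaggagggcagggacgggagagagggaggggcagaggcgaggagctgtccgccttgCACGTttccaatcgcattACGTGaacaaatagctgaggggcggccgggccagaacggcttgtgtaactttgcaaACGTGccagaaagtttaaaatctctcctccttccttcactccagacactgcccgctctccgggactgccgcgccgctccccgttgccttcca
The PLOD2 window holds 3 such matches, at -213, -200 and -146 from the start. The LOX window shown, the farthest upstream of 3 LOX windows, holds 4, at -185, -116, -98 and -42, and the other LOX windows, which overlap each other, hold 2 each. At least 1 match is found in 48.4% of all windows, so these letters are common. The windows of PCOLCE (2 matches) and SERPINH1 (1 and 3) hold them too, and those of ADAMTS2, LOXL1 and LOXL4 do not. LOXL3 has 1 in the second of its windows. The AP-1 letters TGANTCA (7.71% of all windows, either strand) were in no window of the members searched. LOXL2 and BMP1 were not searched for any of these letters. The E-box letters CACCTG bound by ZEB and SNAI factors (20.6% of windows) were in a window of LOX, LOXL3, LOXL4 and SERPINH1.

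**Figure D1:**
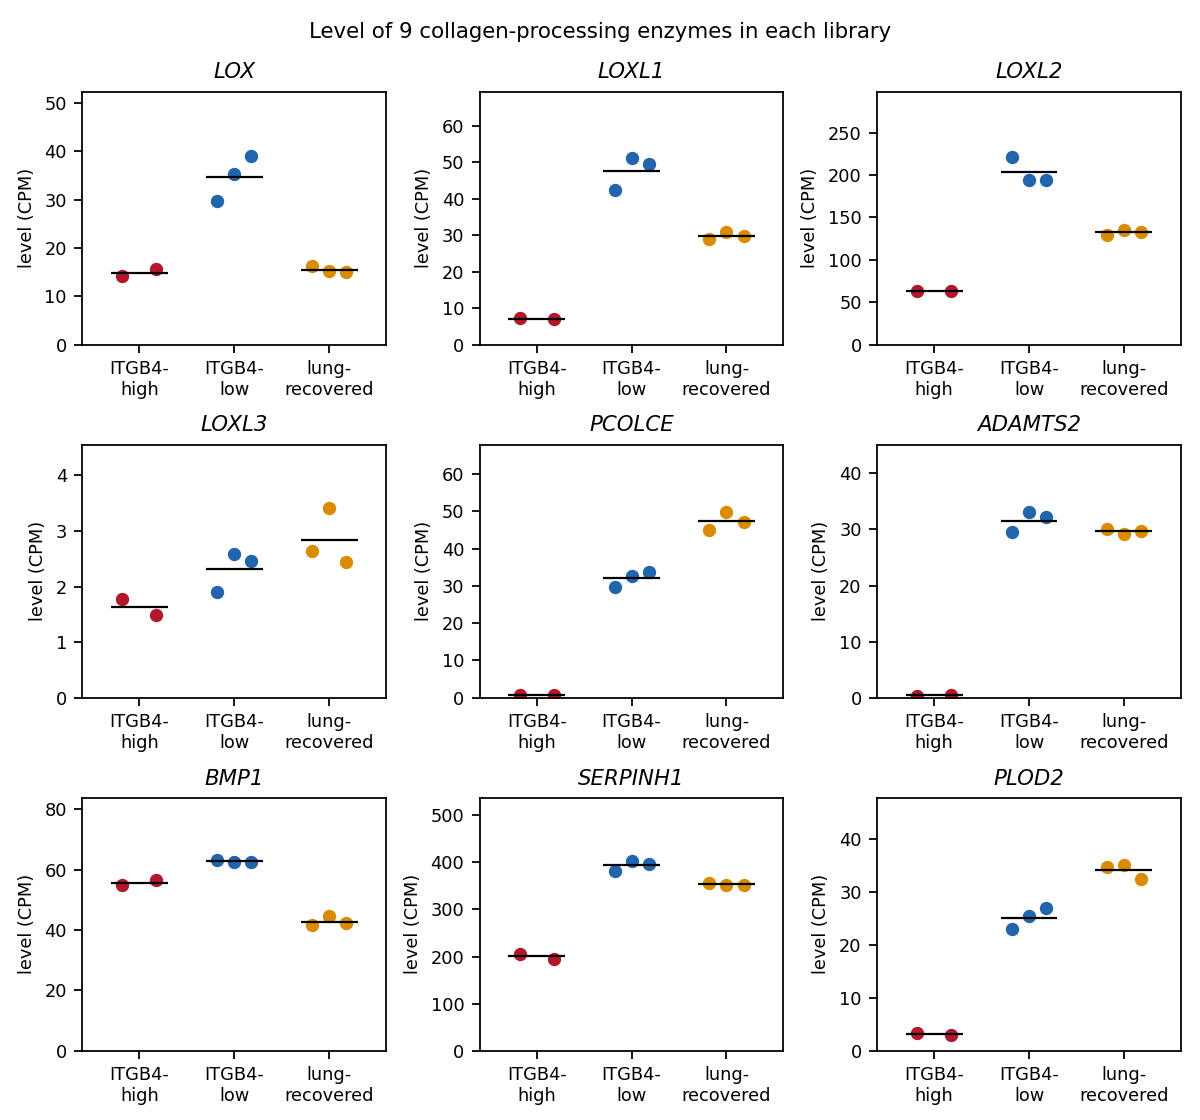
Level of each of the 9 detected members in CPM (linear axis from 0) for the 2 ITGB4-high, 3 ITGB4-low and 3 lung-recovered libraries; each point is 1 library and each line a group mean. ADAMTS2 and PCOLCE lie below 1 CPM in the ITGB4-high libraries and at 29.1 CPM or above elsewhere, while LOX in the lung-recovered libraries lies at the ITGB4-high level.

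Most of these collagen-processing genes were higher in ITGB4-low clone 1 than in ITGB4-high cells. They were chosen with earlier results of these data known, so the counts here only describe them. Of the 9 tested members 8 rose and 0 fell (edgeR adjusted p under 0.05 over all genes), where 28.6% of all tested genes rose and 27.6% fell (56.2% in either direction). LOXL3 was not called. The rises ran from 1.13-fold for BMP1 to 74.0-fold for ADAMTS2. The median log2 fold change of the 9 members was 1.70, against 0.0009 for all tested genes. In the lung-recovered cells 2 of the 9 rose further (PCOLCE and PLOD2; 14.7% of all genes rose), 5 fell (LOX, LOXL1, LOXL2, BMP1 and SERPINH1; 15.4% of all genes fell) and 2 were not called (ADAMTS2 and LOXL3), with a median of -0.16. That is 7 of 9 called, against 30.1% of all genes. The summed lung fibroblast markers were also higher in these libraries (150.0 to 158 CPM against 46.6 to 54.0 CPM), and their part in the rises of PCOLCE and PLOD2 was not tested. Against ITGB4-high cells, 7 of the 9 were higher in the lung-recovered cells (26.2% of all genes), BMP1 was lower (25.0% of all genes), LOX was not called, and the median was 1.07; 51.2% of all genes were called in that comparison. No overlap between the libraries was seen for 9 of the 9 members between ITGB4-low and ITGB4-high (68.7% of all genes), for 7 between lung-recovered and ITGB4-low (43.3%) and for 8 between lung-recovered and ITGB4-high (66.8%). The comparisons share groups, so these counts are not independent of each other. In bulk RNA such as this, fewer cells that express a gene and less RNA of it per cell cannot be told apart.

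**Figure D2:**
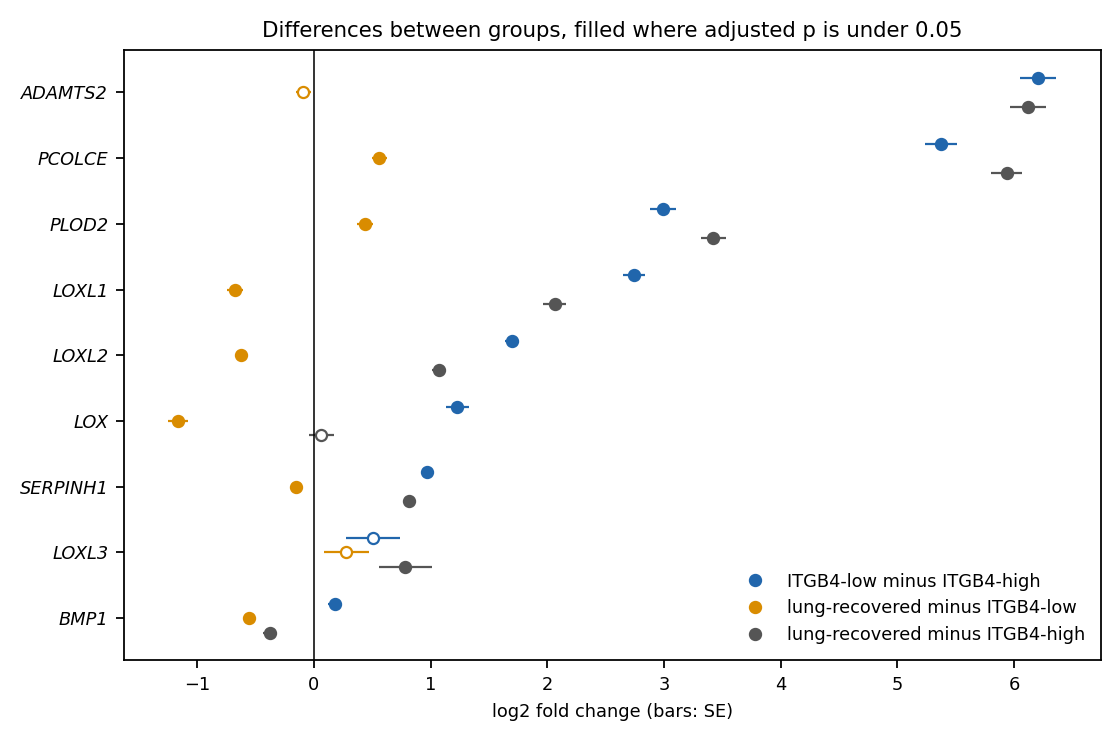
Log2 fold change of each tested member in the 3 comparisons (points; bars are the standard error), filled where the edgeR adjusted p is under 0.05 and open where not. ADAMTS2, PCOLCE and PLOD2 stayed far above ITGB4-high in the lung-recovered cells, and LOX sat at 0.06 in that comparison.

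Among the procollagen peptidases and their helper, ADAMTS2 (ENSG00000087116, hg38 chromosome 5, 179110851 to 179345430, minus strand) removes the amino-terminal propeptide of fibrillar procollagens. It had 0.302 and 0.546 CPM in ITGB4-high, 29.5, 33.1 and 32.1 in ITGB4-low, and 30.0, 29.1 and 29.8 CPM in lung-recovered libraries. All 6 clone 1 libraries were thus far above both ITGB4-high libraries and overlapped among themselves. The log2 fold change of ITGB4-low over ITGB4-high was 6.21 (SE 0.15, edgeR adjusted p = 3.61e-17), from 22 counts in the ITGB4-high group. The lung-recovered cells differed from ITGB4-low by -0.09 (SE 0.07, adjusted p = 0.330, 95% interval -0.22 to 0.04), so ADAMTS2 was the member whose high level in clone 1 showed no called change after the lung.

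PCOLCE (ENSG00000106333, chromosome 7, 100602177 to 100608175, plus strand) encodes a secreted glycoprotein that binds the carboxy-terminal propeptide and speeds its removal by BMP1. Its level was 0.717 and 0.818 CPM in ITGB4-high, 29.8, 32.5 and 33.7 in ITGB4-low, and 45.0, 49.8 and 47.2 CPM in lung-recovered libraries. The 3 groups did not overlap, with ITGB4-high lowest and lung-recovered highest. PCOLCE rose 41.5-fold in ITGB4-low (log2 fold change 5.38, SE 0.14, adjusted p = 4.45e-17) and a further 1.48-fold in lung-recovered cells (0.56, SE 0.06, adjusted p = 5.78e-07). Its antisense neighbour PCOLCE-AS1, which shares 585 exonic bases with it, had 0 counts in ITGB4-high, 5 to 10 per ITGB4-low library and 9 to 21 per lung-recovered library, few beside the 3379 counts of PCOLCE over the lung-recovered group.

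BMP1 (ENSG00000168487, chromosome 8, 22164736 to 22212326, plus strand) is the peptidase that removes the carboxy-terminal propeptide and also activates LOX. It moved least between the dish-grown groups, with 54.8 and 56.5 CPM in ITGB4-high, 63.4, 62.6 and 62.6 in ITGB4-low, and 41.5, 44.6 and 42.3 CPM in lung-recovered libraries. The groups did not overlap, and the lung-recovered one was the lowest, a pattern no other member had. BMP1 fell by 0.56 on the log2 scale from ITGB4-low to lung-recovered cells (SE 0.05, adjusted p = 2.61e-08), and its log2 fold change against ITGB4-high was -0.38 (SE 0.05, adjusted p = 7.86e-06). The small rise in ITGB4-low (0.18, SE 0.05, adjusted p = 0.00821) was no longer called without ITGB4-high replicate 1 (0.15, adjusted p = 0.0798).

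In the endoplasmic reticulum, SERPINH1 (ENSG00000149257, chromosome 11, 75562056 to 75572783, plus strand), the gene of the collagen-specific chaperone HSP47, was the most abundant member per length in every group (122 TPM in ITGB4-high, 250 TPM in ITGB4-low and 222 TPM in lung-recovered cells, where TPM is a level scaled by exon length and library total). Its level was 206 and 196 CPM in ITGB4-high, 381, 403 and 397 in ITGB4-low, and 355, 351 and 352 CPM in lung-recovered libraries. The groups did not overlap, and the lung-recovered libraries lay close under the ITGB4-low ones. SERPINH1 rose by 0.97 in ITGB4-low (SE 0.05, edgeR adjusted p = 9.44e-13) and was lower by a log2 fold change of -0.16 in lung-recovered cells (SE 0.04, adjusted p = 0.00552).

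PLOD2 (ENSG00000152952, chromosome 3, 146069440 to 146163653, minus strand) hydroxylates lysines in the collagen telopeptides, the sites from which stable hydroxylysine cross-links form. It stood at 3.32 and 3.00 CPM in ITGB4-high, 22.9, 25.4 and 27.0 in ITGB4-low, and 34.7, 35.1 and 32.3 CPM in lung-recovered libraries. As with PCOLCE, the groups were separate and ordered from ITGB4-high to lung-recovered. PLOD2 rose 7.94-fold in ITGB4-low (log2 fold change 2.99, SE 0.11, edgeR adjusted p = 1.76e-14) and 1.35-fold more in lung-recovered cells (0.44, SE 0.07, adjusted p = 6.11e-05). Among the lysyl hydroxylases, counted per length, PLOD2 nevertheless took a small share: 0.611% in both ITGB4-high libraries, 4.33% ± 0.187 (SD, n = 3) in ITGB4-low and 5.76% ± 0.173 (n = 3) in lung-recovered cells. The rest was PLOD1 and PLOD3, whose products act mainly on the helix; PLOD1 had a log2 fold change of 0.34 and PLOD3 of -0.24 in ITGB4-low (both called).

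Of the lysyl oxidases, LOX (ENSG00000113083, chromosome 5, 122063195 to 122078360, minus strand), the founding member of the family, had 14.1 and 15.5 CPM in ITGB4-high, 29.7, 35.3 and 39.0 in ITGB4-low, and 16.3, 15.3 and 15.0 CPM in lung-recovered libraries. The ITGB4-low libraries stood above all others, and the lung-recovered ones overlapped the ITGB4-high ones. LOX rose 2.34-fold in ITGB4-low (log2 fold change 1.23, SE 0.10, edgeR adjusted p = 2.19e-09) and fell by 1.16 on the log2 scale in lung-recovered cells (SE 0.09, adjusted p = 2.31e-09). The difference between lung-recovered and ITGB4-high cells was 0.06 (SE 0.10, adjusted p = 0.633), with a 95% interval from -0.14 to 0.27. LOX was the only tested member with no call in that comparison.

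LOXL1 (ENSG00000129038, chromosome 15, 73925989 to 73952137, plus strand), best known for the cross-linking of elastin, had 7.32 and 6.94 CPM in ITGB4-high, 42.3, 51.2 and 49.4 in ITGB4-low, and 28.9, 30.8 and 29.8 CPM in lung-recovered libraries. Each group was separate, and the lung-recovered libraries lay between the dish-grown ones. LOXL1 rose 6.68-fold in ITGB4-low (log2 fold change 2.74, SE 0.09, edgeR adjusted p = 5.23e-15), fell by 0.68 on the log2 scale in lung-recovered cells (SE 0.07, adjusted p = 1.49e-07), and was still 4.18-fold above ITGB4-high there. The antisense gene LOXL1-AS1, which shares 335 exonic bases with LOXL1, moved the same way: 180 to 204 counts per ITGB4-high library, 691 to 828 per ITGB4-low library and 590 to 698 per lung-recovered library (log2 fold changes of 2.19 and -0.33). The strand setting of the counting is not given in the sources used here, so reads of this pair may be exchanged between them.

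LOXL2 (ENSG00000134013, chromosome 8, 23297189 to 23425328, minus strand) cross-links collagen IV of basement membranes as well as fibrillar collagen. It was the most abundant lysyl oxidase per length in every library. Its level was 62.6 and 63.1 CPM in ITGB4-high, 222, 195 and 195 in ITGB4-low, and 129, 136 and 132 CPM in lung-recovered libraries. The order of the groups was that of LOXL1, again with no overlap. LOXL2 rose 3.24-fold in ITGB4-low (log2 fold change 1.70, SE 0.06, edgeR adjusted p = 8.48e-15) and fell by 0.62 on the log2 scale in lung-recovered cells (SE 0.05, adjusted p = 5.84e-09), where it was 2.10-fold above ITGB4-high.

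LOXL3 (ENSG00000115318, chromosome 2, 74532414 to 74555690, minus strand) was scarce, at 1.77 and 1.48 CPM in ITGB4-high, 1.89, 2.58 and 2.45 in ITGB4-low, and 2.65, 3.40 and 2.44 CPM in lung-recovered libraries. Only the difference between lung-recovered and ITGB4-high cells passed the test (log2 fold change 0.78, SE 0.22, edgeR adjusted p = 0.00629), and it did not pass without ITGB4-high replicate 2 (0.66, adjusted p = 0.0689). The difference between ITGB4-low and ITGB4-high was 0.51 (adjusted p = 0.0699), and leaving out ITGB4-low replicate 1 brought it past the threshold (0.62, adjusted p = 0.0313). Lung-recovered and ITGB4-low libraries overlapped (log2 fold change 0.28, adjusted p = 0.308). LOXL3 shares 625 of its 4363 exonic bases with HTRA2 on the opposite strand, which had 858 to 1210 counts per library, so a part of its few reads may belong there. LOXL4 (ENSG00000138131, chromosome 10, 98247690 to 98268250) had 0 counts in all libraries, which allows at most 0.0157 CPM over the 8 libraries together (3 counts of the total, counting error only).

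Counted per length, the lysyl oxidase family summed to 61.1 ± 1.79 TPM in ITGB4-high (SD, n = 2), 222 ± 5.92 in ITGB4-low (n = 3) and 137 ± 3.83 in lung-recovered cells (n = 3). LOXL2 made up 68.7% ± 0.132, 64.2% ± 4.18 and 66.5% ± 0.334 of it in the same order. LOXL1 took 12.2% ± 0.551 in ITGB4-high, 23.6% ± 2.57 in ITGB4-low and 23.6% ± 0.197 in lung-recovered cells. LOX took 16.7% ± 0.995, 11.3% ± 1.61 and 8.04% ± 0.499. LOX was thus the second lysyl oxidase in ITGB4-high and the third in clone 1, in dishes and after the lung alike.

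**Figure D3:**
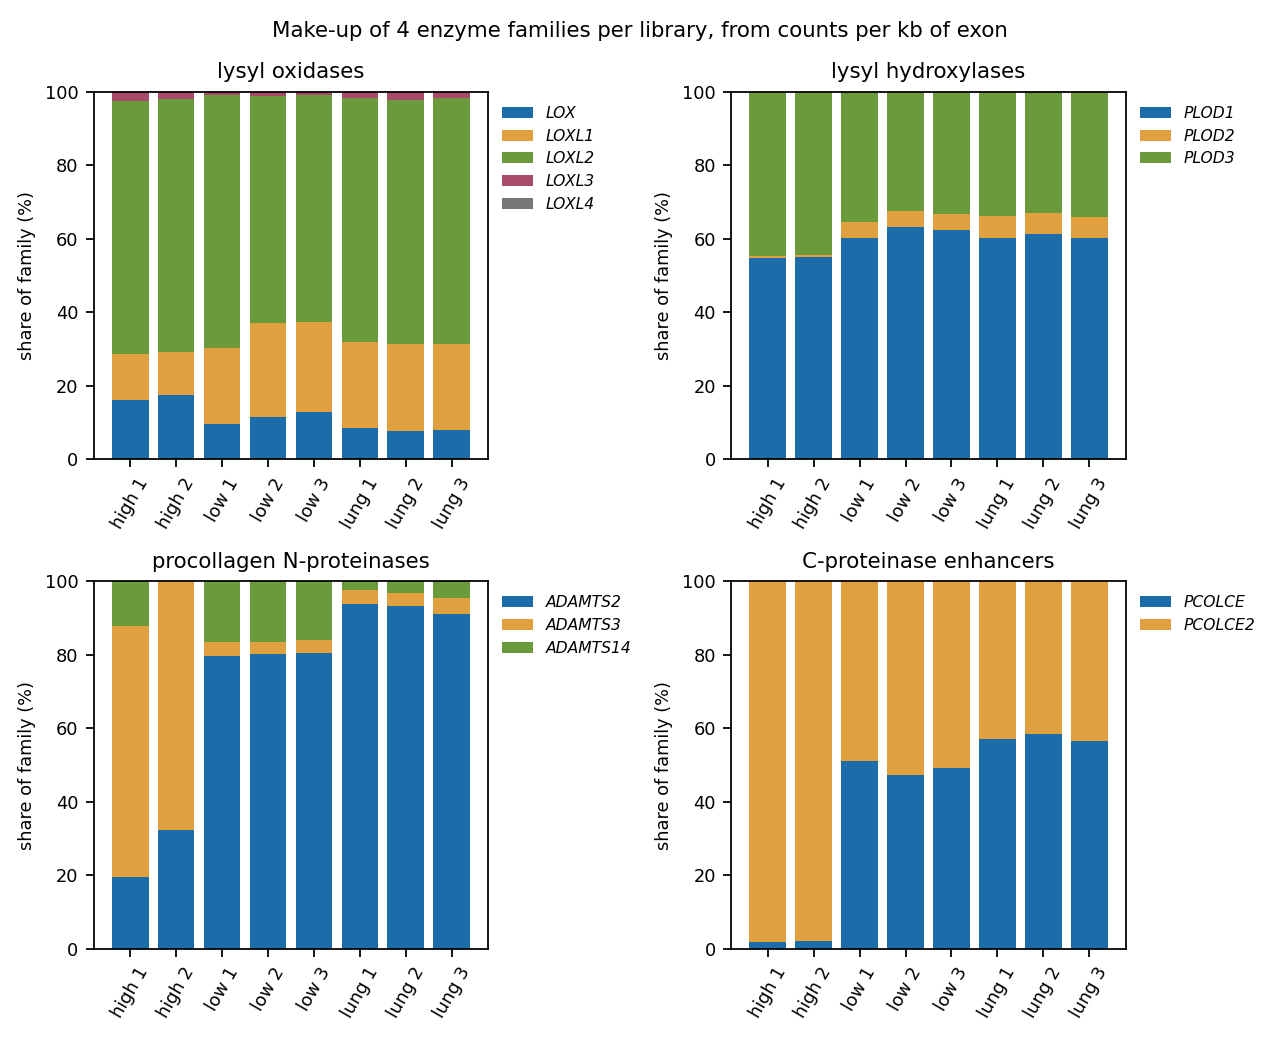
Share of each enzyme in 4 families (percent, stacked to 100) in each of the 8 libraries, from counts per kb of exon. PCOLCE takes 1.90% of the C-proteinase enhancers in ITGB4-high and 57.3% in lung-recovered cells, and ADAMTS2 takes 92.9% of the N-proteinases there.

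The make-up of the N-proteinases and of the C-proteinase enhancers differed widely between the groups. Of the 3 procollagen N-proteinases, ADAMTS2 took 26.0% ± 9.10 per length in ITGB4-high (n = 2, from 22 counts), 80.2% ± 0.452 in ITGB4-low and 92.9% ± 1.44 in lung-recovered cells. ADAMTS14, its close relative, had 3 counts in ITGB4-high and 259 in ITGB4-low, a ratio of 67.5 (95% counting interval 22.8 to 329), and fell in lung-recovered cells (log2 fold change -2.53, adjusted p = 1.76e-07). ADAMTS14 thus rose with ADAMTS2 in the clone but was lower after the lung, where ADAMTS2 was not called. PCOLCE took 1.90% ± 0.123 of the C-proteinase enhancers in ITGB4-high, 49.1% ± 1.90 in ITGB4-low and 57.3% ± 1.08 in lung-recovered cells, while PCOLCE2 stood at 39.6 ± 1.10, 33.3 ± 4.13 and 35.3 ± 1.26 CPM. In the C-proteinases the BMP1 share stayed between 68.1 and 74.3% in every library, with TLL1 as most of the rest.

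Each member was also set beside the other tested genes within 5 Mb on the chromosome. In the comparison of ITGB4-low with ITGB4-high the median log2 fold change of those neighbours was -0.14 around ADAMTS2 (82 genes), -0.11 around PCOLCE (111 genes), -0.22 around PLOD2 (35 genes), -0.02 around LOXL1 (79 genes), 0.07 around LOXL2 (56 genes) and -0.01 around SERPINH1 (74 genes). The medians around these 6 members were thus near 0 or below it while the members themselves rose by 0.97 or more. LOX sits among 25 tested genes with a median of 0.31 (quartiles -0.05 and 0.71), so its rise of 1.23 lies above the upper quartile of a neighbourhood that was itself shifted upward; copy number was not measured. BMP1 (0.18) lies inside the quartiles of its neighbours (median 0.11, quartiles -0.14 and 0.39). In the comparison of lung-recovered with ITGB4-low cells the neighbour medians of all members ran from -0.03 to 0.07.

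**Figure D4:**
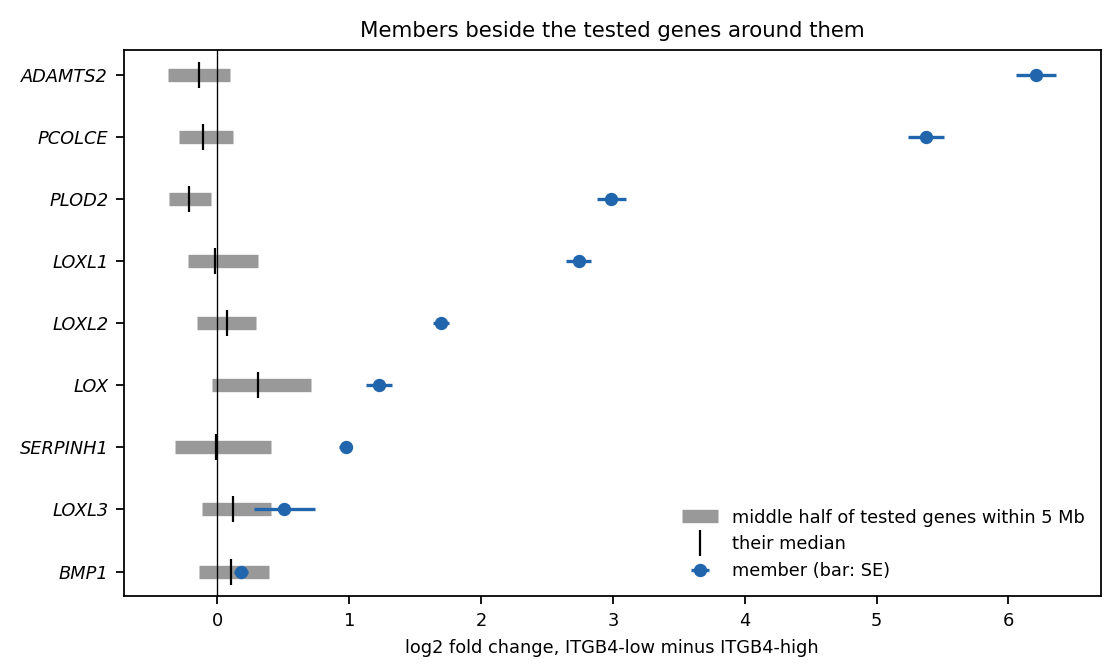
Log2 fold change of each tested member between ITGB4-low and ITGB4-high (blue points; bars are the standard error) beside the tested genes within 5 Mb (grey bar: middle 50% of them; black tick: their median). The neighbour medians lie between -0.22 and 0.31, and BMP1 at 0.18 lies within the range of its neighbours.

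Other genes of the pathway and a hypoxia reference, in 6 lists, had median log2 fold changes between -0.12 and 0.75 in ITGB4-low. The counts of each list stand beside those of all tested genes, of which 28.6% rose and 27.6% fell in ITGB4-low. Between lung-recovered and ITGB4-low cells 14.7% of all tested genes rose and 15.4% fell. Of 17 genes for hydroxylation, glycosylation and folding of procollagen in the endoplasmic reticulum, 9 rose and 6 fell in ITGB4-low, with a median log2 fold change of 0.31. The prolyl 4-hydroxylase subunit gene P4HA2 (0.69, SE 0.06) and the prolyl 3-hydroxylase gene P3H3 (0.60, SE 0.09) rose most among those above 1 CPM, and TMEM38B, a potassium channel of the endoplasmic reticulum (-0.68, SE 0.05), and the prolyl 3-hydroxylation cofactor CRTAP (-0.39, SE 0.06) fell. In lung-recovered cells 2 of the 17 rose and 8 fell (5 without lung-recovered replicate 3), with a median of -0.09. TMEM38B rose by 0.38 (SE 0.05). The prolyl 3-hydroxylase gene P3H2 fell (-0.42, SE 0.04). The scarce prolyl 4-hydroxylase subunit gene P4HA3 (-0.61, SE 0.20, from 3.45 to 2.29 CPM) was called lower, but not without lung-recovered replicate 3 (-0.38, adjusted p = 0.175) or without ITGB4-low replicate 2 (-0.49, adjusted p = 0.116). Of 9 procollagen export genes 2 rose and 0 fell in ITGB4-low by edgeR, with 4 higher under upper-quartile scaling and 1 lower without ITGB4-low replicate 2; the COPII coat genes SEC24D (0.97, SE 0.06) and SEC23A (0.61, SE 0.05) were the 2. SEC24D was at 110 ± 5.72 CPM in ITGB4-low and 107 ± 7.79 CPM in lung-recovered cells (n = 3 each). Of 10 further genes of propeptide processing, 6 were tested, and 1 rose (ADAMTS14) and 3 fell in ITGB4-low, while 2 rose and 2 fell in lung-recovered cells (1 fell without ITGB4-low replicate 3).

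**Figure D5:**
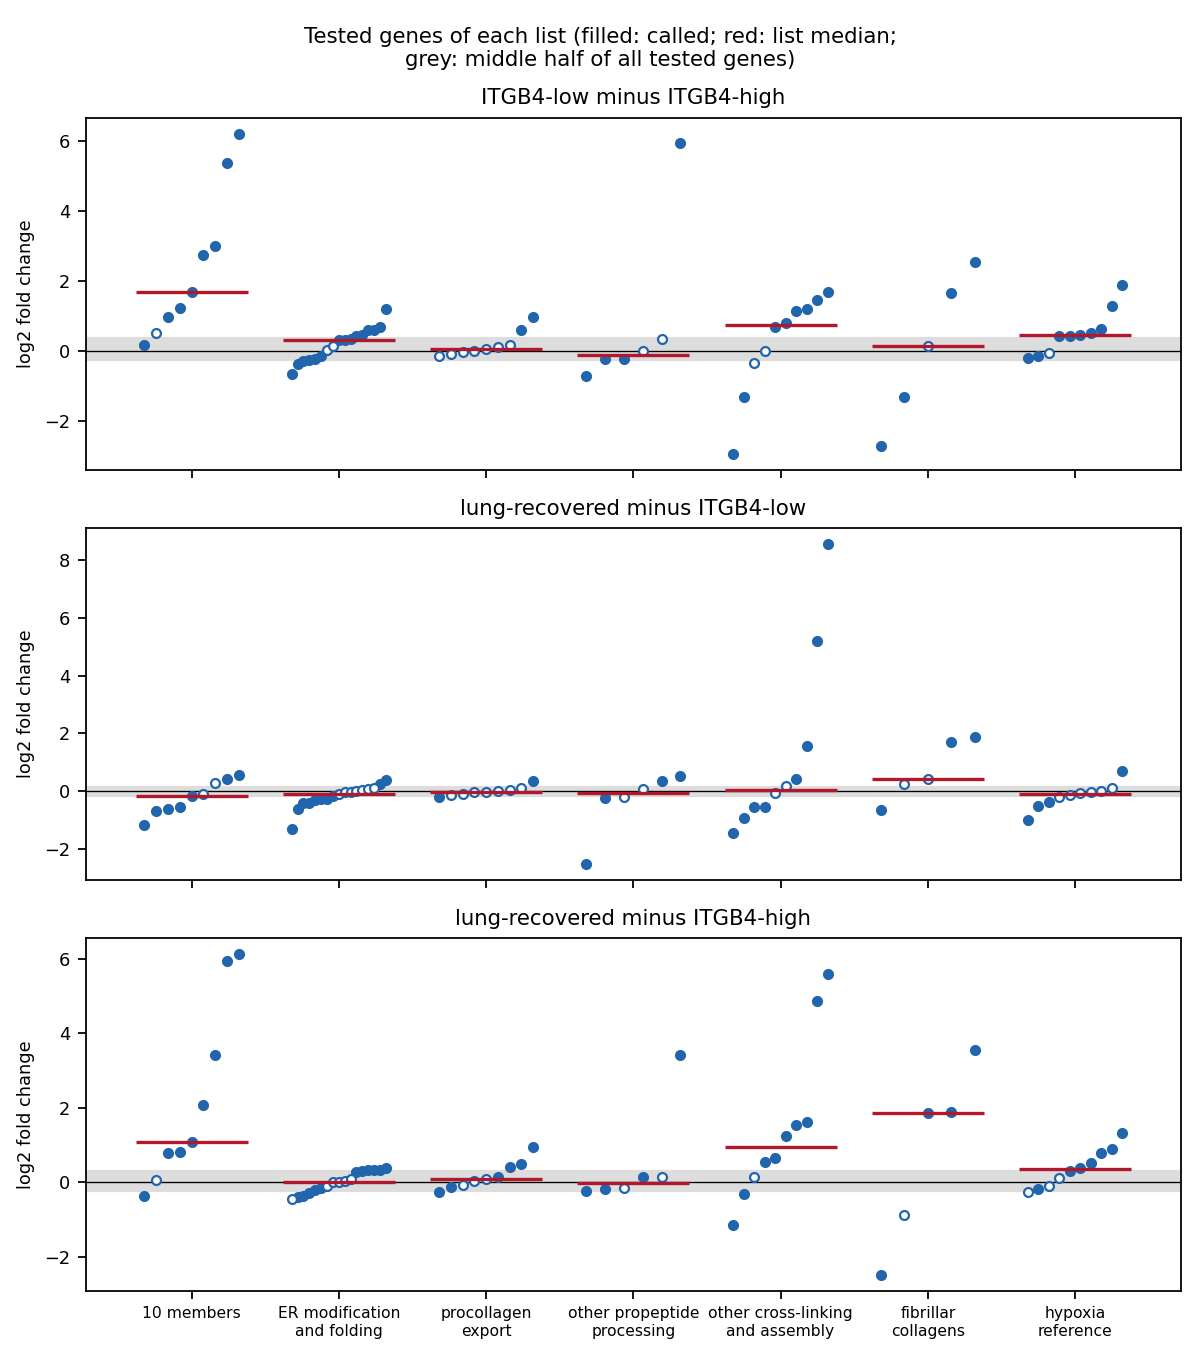
Log2 fold changes of the tested genes of 7 lists in the 3 comparisons (points, filled where called; red line: list median; grey band: middle 50% of all tested genes). The median of the 10 members, of which 9 were tested, is 1.70 in ITGB4-low against 0.31 for the endoplasmic reticulum list and 0.06 for the export list.

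The collagens these enzymes act on did not move as 1 group. Of 9 fibrillar collagen genes, 5 passed the filter. In ITGB4-low 2 of them rose (1 without ITGB4-low replicate 2) and 2 fell (1 with a filter of at least 1 CPM in 2 libraries). Of all tested genes 28.6% rose and 27.6% fell in that comparison. In lung-recovered against ITGB4-low cells 2 rose and 1 fell, where 14.7% of all tested genes rose and 15.4% fell. With 5 genes tested, these counts only describe them. COL5A1 rose from 45.0 ± 1.17 CPM (n = 2) to 261 ± 8.16 CPM (n = 3) in ITGB4-low (log2 fold change 2.53, SE 0.05) and fell to 165 ± 4.53 CPM in lung-recovered cells (-0.66, SE 0.04), the order shown by LOXL1 and LOXL2. COL5A2, the other chain of collagen V, fell in ITGB4-low (-2.73, SE 0.11). COL1A1 averaged 28.1 ± 2.63 CPM in the ITGB4-high libraries against 30.7 ± 1.60 CPM in ITGB4-low (log2 fold change 0.13, adjusted p = 0.137, but 0.22 and 0.0417 without ITGB4-high replicate 1), and rose to 101 ± 5.22 CPM in lung-recovered cells (log2 fold change 1.72, SE 0.06). COL1A2, which supplies the second chain of collagen I, stayed at or below 0.0779 CPM in every library. The rise of COL1A1 and COL3A1 is part of that of the lung fibroblast marker sum given above, and the part of other cells in it was not tested.

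A list of 10 hypoxia-responsive genes was set beside LOX, LOXL2 and PLOD2. In ITGB4-low 7 of the 10 rose and 2 fell (0 without ITGB4-high replicate 2), with a median log2 fold change of 0.44. Of all tested genes 28.6% rose and 27.6% fell in that comparison. The carbonic anhydrase gene CA9 (1.88, SE 0.12) and the mitophagy receptor gene BNIP3 (1.28, SE 0.06) rose most. The 2 that fell were VEGFA (-0.21, SE 0.06) and KDM3A (-0.16, SE 0.06). In lung-recovered cells 1 of the 10 rose (2 without ITGB4-low replicate 1) and 3 fell, against 14.7% and 15.4% of all tested genes. The other 6 were not called, and the median log2 fold change of the list was -0.08. CA9 fell by 0.98 (SE 0.10) and BNIP3 by 0.51 (SE 0.05) on the log2 scale, the direction of LOX and LOXL2, and the prolyl hydroxylase gene EGLN3 rose by 0.70 (SE 0.08), the direction of PLOD2. Oxygen was not measured.

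For 8 of the tested members, the protein-coding gene with the most similar pattern is given by Pearson correlation of log2 CPM over the 8 libraries, among 9250 genes with a mean of at least 10 CPM. The closest to PLOD2 was the collagen VI gene COL6A2 (r = 0.999; 43.6, 329 and 460.4 CPM on average in ITGB4-high, ITGB4-low and lung-recovered cells). The closest to SERPINH1 was DDR2, the gene of a collagen-binding receptor kinase (r = 0.999; 2.14, 95.6 and 56.0 CPM). For LOXL1 it was ENPP2, the gene of the enzyme autotaxin (r = 0.999), and for LOX the GTPase gene RAB23 (r = 0.994). The others were ABCA13 for LOXL2, RNF125 for PCOLCE, TAX1BP3 for ADAMTS2 and GHDC for LOXL3 (r from 0.984 to 0.9997). The 8 points fall into 3 groups and share their libraries, so such values are frequent: between 11 genes (LOXL3) and 645 genes (SERPINH1) exceeded 0.95. Correlation does not weigh the size of a change. In the same order of groups, TAX1BP3 averaged 16.1, 29.5 and 29.2 CPM, a smaller change than that of ADAMTS2. RAB23 averaged 77.9, 99.8 and 79.9 CPM, a smaller change than that of LOX. ABCA13, at 3.65, 52.3 and 19.6 CPM, changed more than LOXL2.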

How the data were processed

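The authors deposited raw counts of RNA-seq reads per Ensembl gene, whole numbers with no normalisation, in 1 column per library (20.4 to 27.2 M). Polyadenylated RNA was made into strand-marked libraries, per the labels' protocols, and STAR 2.7.1a and hg38 are named in the submitters' processing notes. For the counting step, the program, strand setting and annotation release were not given in the sources used here. Groups and replicate numbers came from sample titles, which call the replicates biological. The labels name no culture or animal behind a replicate. Each p-value therefore reflects only how far these samples spread, and how much of that spread is technical is not known. No library was a copy of another of its group, since counts of each pair differed by more than sampling noise (chi-square divided by its degrees of freedom from 1.60 to 6.58).

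Symbols, hg38 coordinates (1-based) and exon lengths came from GENCODE 29, which matched 58216 identifiers (120 did not). All libraries entered 1 edgeR 4.0.16 fit (R 4.3.3) with filterByExpr, TMM scaling and the quasi-likelihood F test. P-values were adjusted by Benjamini-Hochberg over 15220 genes and called under 0.05. Standard errors are the ratio of the log2 fold change to the root of F, and 95% intervals are the normal ones around the fold change. TPM levels divide counts by exon length before scaling. Members, lists and tests were chosen with earlier results of these data known. Named genes were the members, ITGB4, relatives in the enzyme families, overlapping genes, the closest pattern (that of BMP1 is not reported here), and examples from the 2 largest rises and 2 largest falls per list above 1 CPM; other genes in the text were chosen after their values were seen. Alternatives were other scalings (upper quartile, RLE), filters, DESeq2 1.42.0, limma-voom 3.58.1, only the groups compared, a replicate block, each library left out and another gene length.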

Additional observations from a re-analysis of the deposited data

How the results depend on the processing

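Under the 16 alternative fits, 429 member values kept their side of the threshold, and those that were called kept their direction. The uncalled difference of LOX between lung-recovered and ITGB4-high cells ran from -0.0082 (without ITGB4-high replicate 1) to 0.13. The values that crossed the threshold (1 gained and 2 lost a call) are those of BMP1 and LOXL3 given above, each from leaving out 1 library. The counts of members ran from 7 to 9 rises in ITGB4-low, with 0 falls, and from 6 to 7 rises after the lung against ITGB4-high. They were 2 rises and 5 falls after the lung against ITGB4-low under each of the 16. Replicate numbers did not pair the libraries (correlations of same-numbered deviations from -0.07 to 0.04). With a replicate block 8 members rose in ITGB4-low, and over all genes 4069 rose and 3921 fell; the block changed no call of a member.

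Shares within families depend on the gene length used. With the longest transcript in place of all exons, LOX took 12.3, 8.31 and 5.87% of the lysyl oxidases in ITGB4-high, ITGB4-low and lung-recovered cells. LOXL1 took 10.8, 20.9 and 20.7%, and LOXL2 took 74.9, 70.0 and 71.9%. PLOD2 took 0.652, 4.64 and 6.16% of the lysyl hydroxylases. ADAMTS2 took 83.6% of the N-proteinases in ITGB4-low. PCOLCE took 2.25, 53.4 and 61.4% of the enhancers. The order of the groups was kept in each of these families. With 22 and 40 counts in ITGB4-high, ADAMTS2 and PCOLCE have fold sizes that rest on few reads, and LOXL3 is limited in the same way.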

Other observations

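Genes of fibril assembly outside the 10 enzymes moved in both directions. Of 13 such genes 10 were tested. In ITGB4-low 6 rose and 2 fell (1 fell with only the 2 groups fitted), where 28.6% of all tested genes rose and 27.6% fell. In lung-recovered against ITGB4-low cells 4 rose and 4 fell, where 14.7% of all tested genes rose and 15.4% fell. The small proteoglycan gene BGN had 3 counts in ITGB4-low and 1346 in lung-recovered cells, a ratio of 419 (95% counting interval 143 to 2033). POSTN, a matricellular protein that helps bring BMP1 to the matrix, rose to 7.94 ± 0.870 CPM (SD, n = 3) from 0.218 ± 0.131 CPM (n = 3; log2 fold change 5.20, edgeR adjusted p = 1.40e-11). The summed lung fibroblast markers were also higher in the lung-recovered libraries, and the part of other cells in the rises of BGN and POSTN was not tested. FN1, the fibronectin scaffold on which collagen fibrils are laid down, fell by 0.92 on the log2 scale (SE 0.04), and so did THBS1 by 1.45 (SE 0.07). TGM2, a transglutaminase that cross-links proteins by another chemistry than the lysyl oxidases, was at 19.1 ± 0.303, 33.3 ± 2.44 and 45.1 ± 1.20 CPM in ITGB4-high, ITGB4-low and lung-recovered cells. Its order of groups was that of PCOLCE and PLOD2, with log2 fold changes of 0.80 (SE 0.07) and 0.44 (SE 0.06).

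The proprotein convertase genes FURIN and PCSK6, whose products activate propeptide-bearing enzymes including BMP1, ran opposite to most members. PCSK6 was at 34.3 ± 1.38 CPM in ITGB4-high, 21.0 ± 0.962 CPM in ITGB4-low and 30.0 ± 1.10 CPM in lung-recovered cells. FURIN fell in ITGB4-low (-0.24, SE 0.05) and rose in lung-recovered cells (0.37, SE 0.04).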
